A study of Mus musculus with 10 samples.

Results

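The transcripts of 9 genes that make up the oxygen-sensing switch of the cell were followed in brown fat, the depot that burns lipid to warm the body. They are Hif1a, Epas1 and Hif3a, which encode the alpha subunits of the hypoxia-inducible factors (HIF), Arnt, their constitutive partner, the prolyl hydroxylases Egln1, Egln2 and Egln3, the asparaginyl hydroxylase Hif1an, and Vhl. The genes were chosen by name, and every probe set that the platform annotation gives to one of them alone was read. That gave 27 probe sets, of 34945 that carry 1 gene of 18193 in all.

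HIF alpha subunits are made continuously and destroyed when oxygen is present. The Egln enzymes hydroxylate prolines of the alpha subunit, the Vhl protein binds the hydroxylated form and marks it for the proteasome, and Hif1an hydroxylates an asparagine that blocks the contact with coactivators. When oxygen falls, the alpha subunit escapes, pairs with Arnt and binds DNA at the core motif ACGTG or GCGTG. This control acts on the protein, so transcript levels read the supply of the parts and not the activity of the factor. Egln1 and Egln3 are themselves induced by HIF in many cells, and Epas1 is strongly expressed in endothelium and in adipocytes.

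The samples were 5 mice labelled as knockouts of Sirt3 (KO), a gene for a mitochondrial deacetylase, and 5 wild-type littermates (WT), with 1 Affymetrix array per mouse. Per the labels, all were untreated, on a 129 background and about 1 year old. The labels give neither the targeting of the Sirt3 allele nor the sex of the mice. The title of the study names SIRT3 and HIF1a, and the comparison asks whether the transcripts of this switch differ between the genotypes. All values are log2 signals made by RMA, so that 1 unit is a doubling, and differences are KO minus WT.

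Several features of the whole set of arrays bear on every value. Sirt3 itself was not lower in arrays labelled KO, with 10.32 ± 0.07 there against 10.13 ± 0.10 in WT (SD, n = 5 each). The tissue carried its markers: 7 measured genes of brown adipocytes, among them Ucp1 and Cidea, had a mean per array of 11.79 to 12.09 in KO and 11.78 to 12.53 in WT. The dimmest of them was Ppargc1a at 8.46, and 6 of the 7 had the lower mean in KO. The mean of 4 adipocyte markers was 11.44 in KO and 11.27 in WT, with 2 higher and 2 lower. Skeletal muscle RNA varied most, since the mean of 20 muscle markers ran from 5.20 to 10.67 in KO arrays and from 7.21 to 11.30 in WT arrays. It also differed between genotypes, at 8.31 on average in KO and 9.82 in WT, and all 20 markers had the lower mean in KO. The mean of 11 endothelial markers ran from 8.17 to 8.24 in KO and from 7.78 to 8.27 in WT, and 9 of the 11 had the higher mean in KO. The part of adipocyte and endothelial RNA in the values below was not tested. A sign of RNA quality, the 3' minus 5' signal of the Pcx control, was 2.77 to 2.95 in KO and 2.96 to 3.44 in WT, without overlap. The part of muscle RNA in the values below was not tested except by the muscle covariate fits named there. RNA quality entered no fit and was not tested. Since the Pcx values did not overlap, its part cannot be told apart from that of genotype. In tissue RNA, fewer cells of a type and less RNA per cell cannot be told apart.

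None of the 27 probe sets passed the test between genotypes. In the limma fit across all 34945 probe sets, 0 had an adjusted p under 0.05 (0% called), and the lowest adjusted p among the members was 0.885. An unadjusted p under 0.05 was reached by 2 member probe sets, a dim one of Hif1a that was higher and a dim one of Hif3a that was lower, where 5.41% of all probe sets reached that level. Of the 27, 8 were higher and 19 lower in KO, beside 47.3% higher and 52.7% lower among all probe sets, and the median difference was -0.05 against -0.0059 over all. Differences that were not called ranged from -0.39 (Egln3) to 0.26 (Hif1a). The 95% confidence interval lay within 0.5 log2 units of 0 for 25 of the 27, and the other two were those of Egln3.

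**Figure D1:**
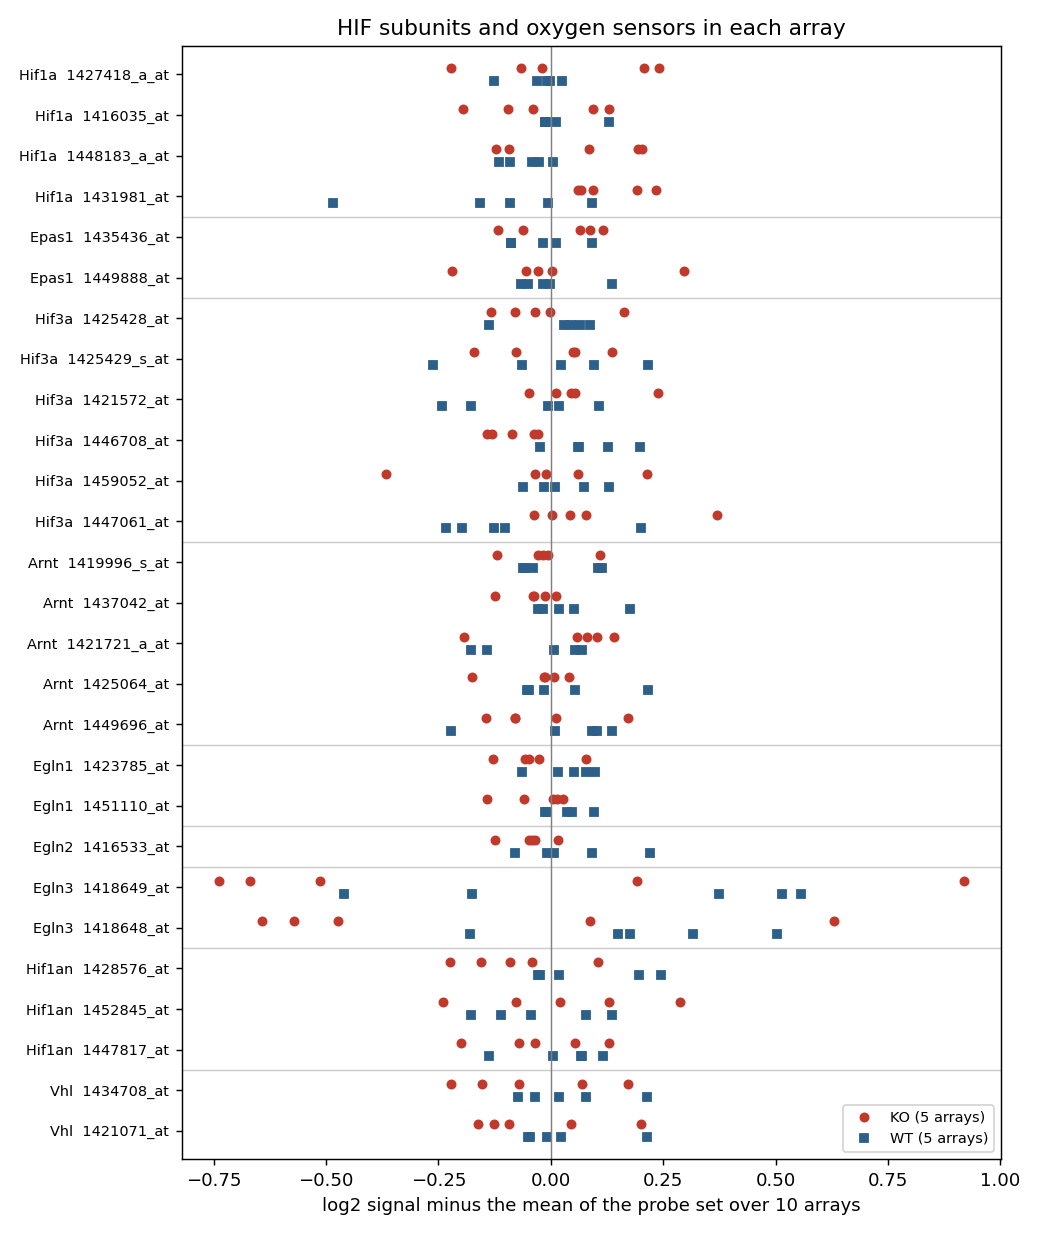
Log2 signal of each of the 27 probe sets in every array, minus the mean of that probe set over the 10 arrays, with KO arrays as circles above WT arrays as squares. Egln3 spread over 1.66 and 1.27 log2 units, and the next widest probe set, a dim one of Hif1a, over 0.72.

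**Figure D2:**
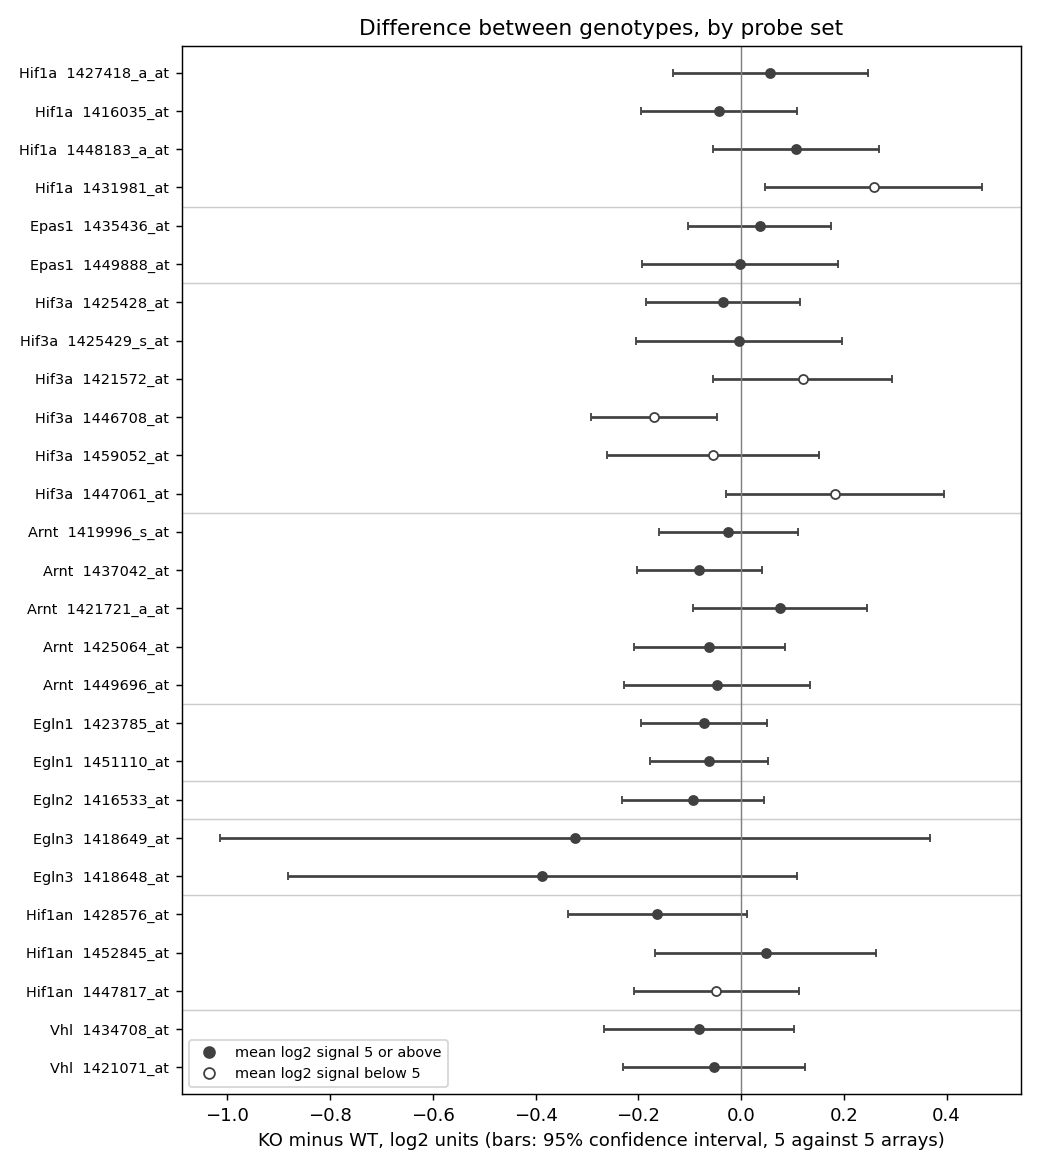
KO minus WT difference of each probe set in log2 units with its 95% confidence interval from limma (5 against 5 arrays). Open circles mark probe sets with a mean log2 signal below 5, and the 2 intervals that leave out 0 both belong to such dim sets.

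Hif1a, the alpha subunit named in the title of the study, was read by 4 probe sets with differences of both signs. The one with the highest signal (1427418_a_at) gave 9.35, 9.40, 9.20, 9.66 and 9.62 in KO arrays 1 to 5, against 9.39, 9.29, 9.42, 9.44 and 9.41 in WT arrays 1 to 5. Here KO 4 and KO 5 lay above every WT array and KO 3 below every one, so the KO arrays enclosed the WT range. The means were 9.45 ± 0.19 in KO and 9.39 ± 0.06 in WT (SD, n = 5 each), a difference of 0.06 ± 0.087 (SE; interval -0.13 to 0.25). Leaving out 1 array at a time gave 0.0036 (without KO 4) to 0.12 (without KO 3), and leaving out WT 5, KO 1 and KO 3 gave 0.18 (adjusted p 0.94 by limma).

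A second Hif1a probe set (1416035_at) gave 7.83, 8.15, 7.98, 8.12 and 7.93 in KO arrays, against 8.04, 8.01, 8.01, 8.15 and 8.01 in WT arrays. It differed by -0.04 ± 0.069 and its groups overlapped, with KO 1 the lowest array of all. The third (1448183_a_at) gave 7.79, 7.50, 7.47, 7.68 and 7.79 in KO arrays, against 7.48, 7.57, 7.55, 7.50 and 7.60 in WT arrays. It differed by 0.11 ± 0.074, and KO 1, the lowest array in the second set, was here the highest. Over the 10 arrays these sets had r = -0.63 (permutation p = 0.052; 0.33 adjusted over 38 pairs of probe sets of the same gene) and Spearman's rho = -0.46 (permutation p = 0.19; 0.60 adjusted). Without the 2 arrays farthest from the median r was -0.31. This was the only pair of Hif1a sets with r below 0. The other pairs had r from 0.070 to 0.53, with adjusted permutation p of 0.467 or more.

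The fourth Hif1a probe set (1431981_at) was dim, with a mean of 4.73, below the array medians of 5.58 to 5.61. It gave 4.92, 4.97, 4.79, 4.83 and 4.80 in KO arrays, against 4.73, 4.58, 4.25, 4.82 and 4.64 in WT arrays. Each of the 5 KO values exceeded the WT mean and 3 exceeded every WT array, while WT 3 was low. Its difference was 0.26 ± 0.096 (interval 0.05 to 0.47), with an unadjusted exact permutation p of 0.024 for n = 5 against 5 and an adjusted p of 0.885 by limma. No detection call was used, so how much of so dim a signal is Hif1a transcript was not tested. The log2 ratio of 1416035_at to this dim set differed between genotypes by -0.30 (exact permutation p = 0.0079, the minimum for groups of 5; 0.15 after adjustment over the 38 pairs).

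**Figure D3:**
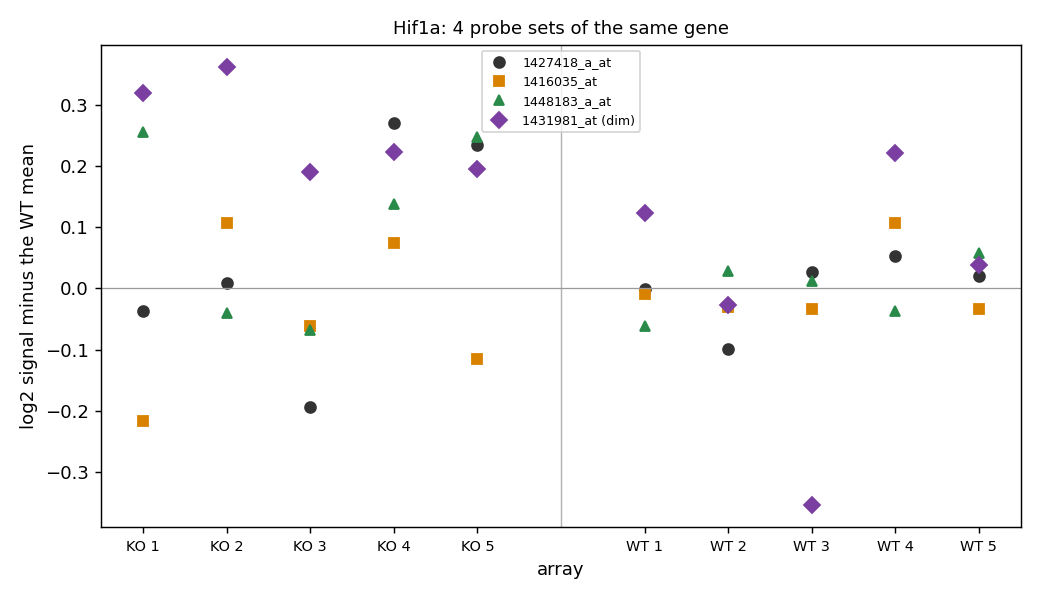
Log2 signal of the 4 probe sets of Hif1a in each array, minus the mean of the 5 WT arrays for that set. In KO 1 the set 1448183_a_at was the highest array of its set and 1416035_at the lowest of its own, and the dim set 1431981_at was above its WT mean in all 5 KO arrays.

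Epas1 encodes HIF-2 alpha, the subunit typical of endothelium. Its brighter probe set (1435436_at) gave 12.34, 12.32, 12.13, 12.37 and 12.19 in KO arrays, against 12.34, 12.26, 12.16, 12.23 and 12.16 in WT arrays. The groups overlapped almost fully, and the difference was 0.04 ± 0.064 (interval -0.10 to 0.18). A second set (1449888_at) gave 9.73, 9.44, 9.38, 9.21 and 9.41 in KO arrays, against 9.57, 9.38, 9.42, 9.37 and 9.43 in WT arrays. It differed by -0.0018 ± 0.087, with the highest and the lowest array both in KO. The 2 sets ranged over 0.23 and 0.52 log2 units across all arrays.

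Hif3a encodes an alpha subunit with splice forms that oppose the others, and 6 probe sets read it. The brightest (1425428_at) gave 7.04, 7.11, 7.28, 7.08 and 6.98 in KO arrays, against 6.98, 7.16, 7.14, 7.18 and 7.20 in WT arrays. KO 3 was the highest and WT 1 the lowest array, and the difference was -0.03 ± 0.068. The second (1425429_s_at, whose suffix marks probes shared by several transcripts) differed by -0.0037 ± 0.091.

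The other 4 sets of Hif3a had means of 3.33 to 4.75 and gave differences of both signs, from -0.17 to 0.18. Of these, 1446708_at gave 3.98, 4.07, 4.08, 3.97 and 4.02 in KO arrays, against 4.08, 4.17, 4.23, 4.31 and 4.17 in WT arrays. Its groups did not overlap, though by a narrow margin (4.079 in KO 3 and 4.082 in WT 1). The mean was 4.02 ± 0.05 in KO and 4.19 ± 0.08 in WT (SD, n = 5 each), a difference of -0.17 ± 0.056 with an exact permutation p of 0.0079 and an adjusted p of 0.885 by limma. It was the only one of the 27 without overlap, where 0.693% of all probe sets showed none. Another dim set (1447061_at) ran the other way at 0.18 ± 0.097, and the difference between these 2 had an exact permutation p of 0.024 (n = 5 against 5; 0.30 adjusted over the 38 pairs).

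Arnt, the beta subunit shared by all HIF complexes, was read by 5 probe sets. The brightest (1419996_s_at) gave 7.97, 7.86, 7.95, 8.09 and 7.96 in KO arrays, against 8.08, 7.92, 7.92, 8.09 and 7.94 in WT arrays. This set bears the suffix for probes shared by several transcripts. Its difference was -0.02 ± 0.062, far inside the spread of either group. Another set (1437042_at) gave 7.63, 7.63, 7.54, 7.66 and 7.68 in KO arrays, against 7.85, 7.64, 7.69, 7.72 and 7.65 in WT arrays. There 3 KO arrays lay below every WT array, WT 1 was the highest, and the difference was -0.08 ± 0.056 (exact permutation p = 0.071, n = 5 against 5). The set 1421721_a_at had the higher mean in KO, by 0.08 ± 0.078, with KO 2 at 7.34 while the other KO arrays lay between 7.59 and 7.68. The remaining sets differed by -0.06 ± 0.067 (1425064_at) and -0.05 ± 0.082 (1449696_at).

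The prolyl hydroxylases, which set the oxygen dependence of HIF, had lower KO means in all 5 of their probe sets, without a call. Egln1, the main prolyl hydroxylase of HIF in most tissues, gave 11.19, 11.08, 11.06, 10.98 and 11.05 in KO arrays with its brighter set (1423785_at), against 11.13, 11.21, 11.05, 11.19 and 11.16 in WT arrays. All 10 arrays lay within 0.23 log2 units, and the difference was -0.07 ± 0.056 (interval -0.20 to 0.05). The second set (1451110_at) gave 10.22, 10.22, 10.15, 10.07 and 10.24 in KO arrays, against 10.31, 10.25, 10.20, 10.20 and 10.26 in WT arrays. It differed by -0.06 ± 0.053, with KO 4 the lowest array in both sets. An SD within groups at least as large as in this set was found in 96.3% of all probe sets, so Egln1 was among the steadier transcripts.

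Egln2, a prolyl hydroxylase that hypoxia does not induce in most cells, was read by 1 probe set (1416533_at). It gave 8.60, 8.66, 8.60, 8.61 and 8.52 in KO arrays, against 8.64, 8.65, 8.56, 8.87 and 8.74 in WT arrays. The KO arrays lay close together and all 5 were below the WT mean, which WT 4 and WT 5 raised. The difference was -0.09 ± 0.063, and it was -0.02 without WT 4 and WT 5.

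Egln3, a prolyl hydroxylase strongly induced by HIF in many cells, was the member that differed most from mouse to mouse. Its brighter set (1418649_at) gave 6.66, 7.52, 6.81, 6.59 and 8.25 in KO arrays, against 7.15, 6.87, 7.84, 7.70 and 7.88 in WT arrays. KO 1, KO 3 and KO 4 were the lowest arrays and KO 5 the highest, so that the groups overlapped and the highest array had 3.15 times the signal of the lowest. The second set (1418648_at) gave 5.44, 6.00, 5.27, 5.34 and 6.54 in KO arrays, against 6.06, 5.73, 6.41, 6.09 and 6.23 in WT arrays. The same 3 KO arrays were lowest and KO 5 again highest. The sets followed each other over the 10 arrays, with r = 0.94 (permutation p = 0.0001; 0.0038 adjusted over the 38 pairs) and rho = 0.94 (0.00033; 0.013 adjusted). Without the 2 arrays farthest from the median r was 0.90, and this was the only one of the 38 pairs that passed.

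The spread of Egln3 within genotypes was wide against the rest of the array. Its SD within groups was 0.59 and 0.42 log2 units, beside a median of 0.127 over all probe sets, and only 1.16% and 2.50% of all probe sets had an SD as large. The differences were -0.32 ± 0.32 (interval -1.01 to 0.37) and -0.39 ± 0.23 (interval -0.88 to 0.11), with exact permutation p of 0.39 and 0.19 for n = 5 against 5. Single arrays moved both values. Without KO 5 both were at -0.59, with unadjusted p of 0.035 and 0.0045 and an adjusted p of 0.92 for each by limma. Without KO 4 the brighter set was at -0.18, and without KO 3 the other was at -0.27. In the arrays lowest in the brighter set the muscle mean was 5.40 in KO 1, 5.20 in KO 3, 10.67 in KO 4 and 11.30 in WT 2, and in the highest it was 9.62 in KO 5 and 7.21 in WT 5. The part of muscle RNA in the spread of Egln3 was not tested. With the muscle mean as a covariate the differences were -0.28 ± 0.34 and -0.30 ± 0.24. Without WT 5, KO 1 and KO 3, the arrays with least muscle RNA, the brighter set turned to 0.06 and the other was at -0.11.

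**Figure D4:**
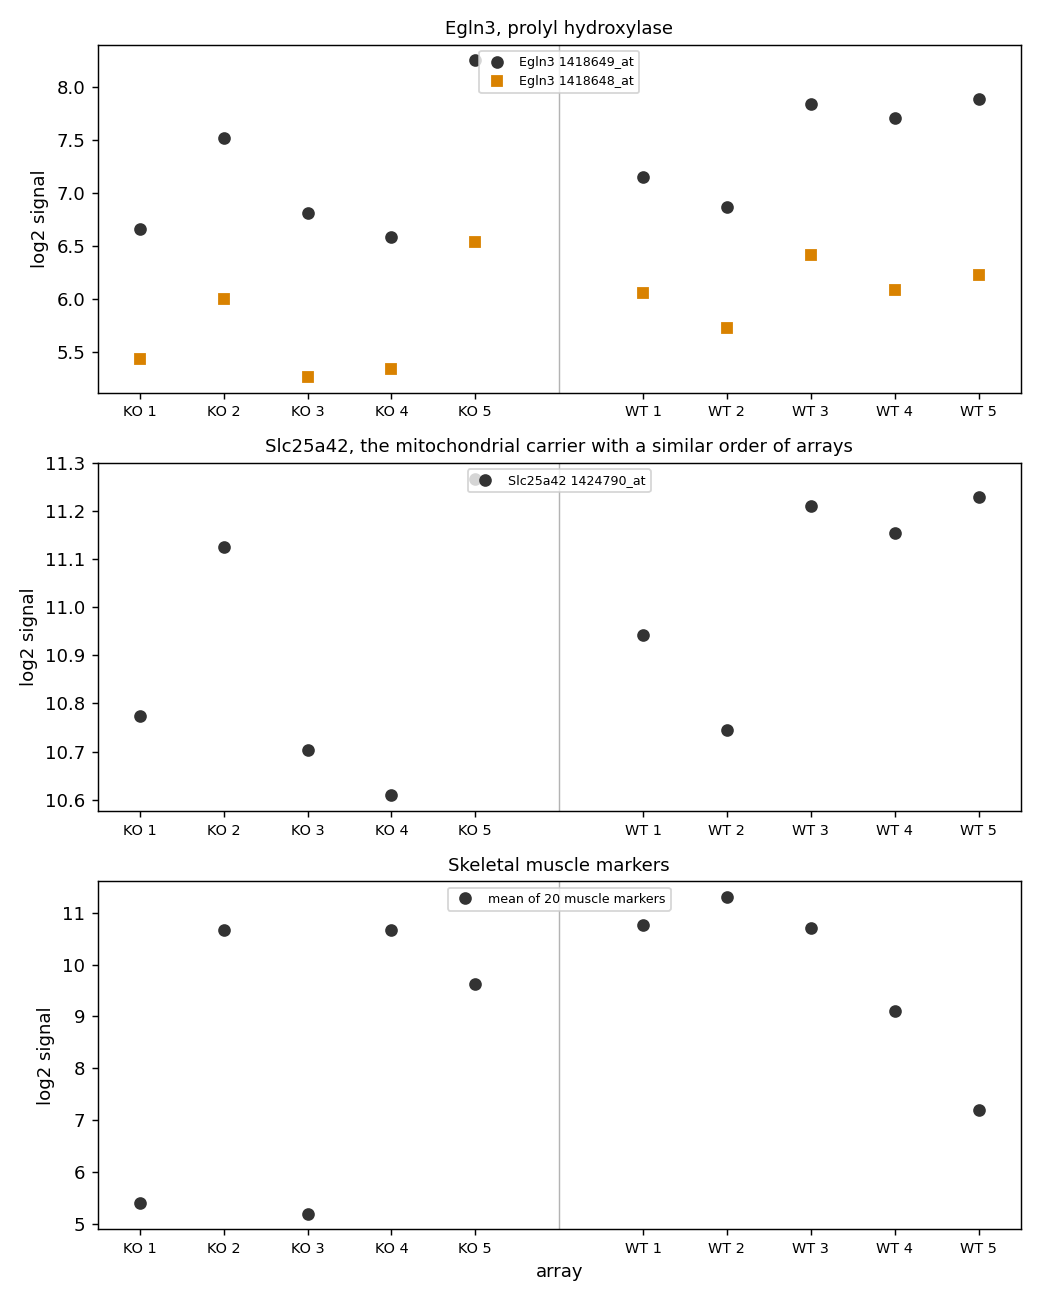
Log2 signal by array of the 2 Egln3 probe sets (top), of Slc25a42 (middle) and the mean of 20 skeletal muscle markers (bottom), with KO arrays left of WT arrays. Slc25a42 is 1 of the 3 genes chosen for the highest r with Egln3 (1418649_at), so a shared order of arrays is no test. KO 1, KO 3, KO 4 and WT 2 are the 4 lowest arrays for both Egln3 (1418649_at) and Slc25a42. Their muscle means are 5.40, 5.20, 10.67 and 11.30.

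The stretch of 250 bases before the annotated start of 2 hydroxylase genes is printed because these genes are known HIF targets and lay at opposite ends in how much they varied here, Egln1 with SDs within groups of 0.069 and 0.059 and Egln3 with 0.59 and 0.42. Sequences are from RefSeq (GRCm38.p6), 5′ to 3′ on the strand of the gene, with capitals on the core motifs ACGTG and GCGTG, searched on both strands. Egln1 lies on the minus strand at chr8:124949255-124949504 and Egln3 on the minus strand at chr12:54203875-54204124.
Egln1: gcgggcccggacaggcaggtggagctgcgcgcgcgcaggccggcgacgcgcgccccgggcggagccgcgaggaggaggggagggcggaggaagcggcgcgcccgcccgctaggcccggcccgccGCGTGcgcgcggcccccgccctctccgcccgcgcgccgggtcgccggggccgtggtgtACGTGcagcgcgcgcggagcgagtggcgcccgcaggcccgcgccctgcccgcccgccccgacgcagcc
Egln3: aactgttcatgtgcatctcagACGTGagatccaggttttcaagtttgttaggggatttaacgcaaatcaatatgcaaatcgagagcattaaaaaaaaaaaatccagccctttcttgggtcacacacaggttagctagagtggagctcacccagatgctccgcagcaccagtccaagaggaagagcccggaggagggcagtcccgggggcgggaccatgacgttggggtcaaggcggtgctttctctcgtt
Egln1 held 1 ACGTG, from 68 to 64 bases before the start, and 1 GCGTG. Egln3 held 1 ACGTG, from 229 to 225 bases before the start, and no GCGTG in this window. Either core was found in 38.6% of the same window of 32851 RefSeq promoters, and ACGTG in 16.6%, so a match is common. Of the members, 8 had a promoter sequence, and Epas1 had none. Hif1a held 3 matches of ACGTG on either strand, 2 of them the overlapping reads of 1 CACGTG. Egln2 held 1 ACGTG and 3 GCGTG in its promoter at chr7:27166803-27167052 and 1 GCGTG in its other promoter. Hif3a held 2 GCGTG and Arnt 1, and Vhl and Hif1an held neither core. The array data carry no measure of HIF binding, and these matches are a description of the letters.

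Hif1an, also called FIH, hydroxylates the asparagine of the alpha subunit and was read by 3 probe sets. The brightest (1428576_at) gave 7.49, 7.76, 7.43, 7.56 and 7.61 in KO arrays, against 7.90, 7.67, 7.85, 7.62 and 7.63 in WT arrays. KO 2 lay inside the WT range and the other 4 KO arrays below every WT array. The means were 7.57 ± 0.12 in KO and 7.73 ± 0.13 in WT (SD, n = 5 each), a difference of -0.16 ± 0.079 (interval -0.34 to 0.01) with an exact permutation p of 0.095. With the muscle mean as a covariate it was -0.10 ± 0.071. The second set (1452845_at) ran the other way at 0.05 ± 0.098, and the dim 1447817_at, at a mean of 3.38, gave -0.05 ± 0.073.

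Vhl encodes the substrate receptor of the ubiquitin ligase that removes hydroxylated HIF alpha. Its brighter set (1434708_at) gave 7.32, 7.56, 7.16, 7.23 and 7.45 in KO arrays, against 7.40, 7.31, 7.46, 7.35 and 7.60 in WT arrays. KO 3 and KO 4 were the lowest arrays and WT 5 the highest, and the difference was -0.08 ± 0.085. The second set (1421071_at) differed by -0.05 ± 0.081, and KO 1, KO 3 and KO 4 lay below every WT array there. Both signs turned, to 0.03 and 0.07, without WT 5, KO 1 and KO 3.

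Probe sets of the same gene often had differences of opposite sign, some of them close to 0. Of the 8 members with several sets, 5 (Hif1a, Epas1, Hif3a, Arnt and Hif1an) had sets of opposite sign, while those of Egln1, Egln3 and Vhl were all lower in KO. That makes 18 of 38 pairs with opposite signs. For Epas1 both differences were smaller than their SE (0.04 ± 0.064 and -0.0018 ± 0.087). The share of opposite signs over all genes with several sets was not computed, so these counts do not set the members apart. In 5 of the 38 pairs the 2 sets differed from each other in their genotype difference at an exact permutation p under 0.05 (n = 5 against 5), each pair holding at least 1 dim set, and 0 passed after adjustment over the pairs. The exact p cannot fall below 0.0079 with these groups, so no pair could have passed that adjustment on its own. Correlations over the 10 arrays were above 0 in 30 of the 38 pairs and below 0 in 8.

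The members were also compared with each other, each by its probe set with the highest mean. Of 36 pairs of genes, 1 had a permutation p of r under 0.05 and 0 passed after adjustment. That pair was Egln3 and Vhl, the hydroxylase and the receptor of its product, with r = 0.75 (permutation p = 0.014; 0.52 adjusted over 36 pairs) and rho = 0.79 (0.0091; 0.33 adjusted) over 10 arrays. Without the 2 arrays farthest from the median of Egln3 r was 0.76. Epas1 and Hif3a had r = -0.60 (permutation p = 0.067; 0.58 adjusted), and Egln1 and Egln2 had r = 0.57 (0.077; 0.58 adjusted).

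The genes most like each member over the 10 arrays were taken as those with the highest Pearson r among 18192 others, which always yields high values and carries no test. For Egln3 they were Zfp24, a zinc finger protein (r = 0.98, rho = 0.99), Slc25a42, a mitochondrial carrier of coenzyme A (0.97, 0.96), and Utp4, a ribosome assembly factor (0.96, 0.85). Slc25a42 gave 10.77, 11.13, 10.70, 10.61 and 11.27 in KO arrays, against 10.94, 10.74, 11.21, 11.15 and 11.23 in WT arrays, low in the arrays that were low in Egln3. For Epas1 the first was Ppp1r14a, an inhibitor of myosin phosphatase found in smooth muscle (r = 0.96, rho = 0.94), followed by Igtp, an interferon-induced GTPase (0.93, 0.90). For Hif1a they included Helz2 (r = 0.93, rho = 0.94) and Pom121, a nuclear pore protein (0.92, 0.87). Krtap9-3, which had the highest r for Hif1a (0.95, rho 0.70), was dim at a mean of 2.67.

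For Hif1an the most similar were Gsr, glutathione reductase (r = 0.95, rho = 0.90), and Elovl5, a fatty acid elongase (0.94, 0.94). Egln2 went with Arhgap42 (r = 0.98, rho = 0.92), Map3k5, a stress-activated kinase (0.95, 0.79), and Ncoa1, a coactivator also held in the pathway list below (0.95, 0.87). Egln1 was closest to Ube3b, a ubiquitin ligase (r = 0.94, rho = 0.90), and Vhl to Dcun1d5, which takes part in cullin neddylation (0.97, 0.94). Arnt was closest to Srsf2, a splicing factor (0.95, 0.99), where both sets bear the suffix for probes shared by several transcripts. Hif3a was closest to Sfrp4, a secreted Wnt inhibitor (0.94, 0.90). The other genes among the 3 most like each were Trav12n-2 for Epas1, Rab37 and Gpr101 for Hif3a, Trim10 and Klrd1 for Arnt, Pcdhb17 and Zfp449 for Egln1, 1110004F10Rik for Hif1an, and Gpr1 and Znrd1 for Vhl, with r from 0.87 to 0.93. Of these, Gpr101 (mean 2.70), Klrd1 (3.32), Trav12n-2 (4.64), Trim10 (4.67), Gpr1 (4.74) and Rab37 (4.90) were dim.

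Other genes that handle the HIF proteins showed no call either. A list of 36 measured genes, among them the Vhl ligase partners Cul2, Rbx1, Elob and Eloc and the coactivators Crebbp and Ep300, was read by 95 probe sets, with 43 of them higher, 52 lower and -0.018 as their median difference. In this list 0 probe sets passed over all 34945, 4 were lower at an unadjusted p under 0.05 by limma and 0 higher, where 2.56% of all probe sets were lower and 2.85% higher at that level. The 4 belonged to Siah1a, a ubiquitin ligase that acts on prolyl hydroxylases (-0.15 ± 0.058), Crebbp, the CBP coactivator (-0.18 ± 0.072), and both sets of Rnf7, a RING protein of cullin ligases (-0.18 ± 0.073 and -0.17 ± 0.074). Siah1a was read by 3 probe sets and Crebbp by 4, and their other sets did not reach that level. The Siah1a set given (1449733_s_at) bears the suffix for probes shared by several transcripts. Siah1a gave 7.48, 7.41, 7.50, 7.48 and 7.51 in KO arrays, against 7.67, 7.48, 7.55, 7.72 and 7.68 in WT arrays, where WT 2 lay inside the KO range. Crebbp gave 7.48, 7.46, 7.48, 7.38 and 7.36 in KO arrays, against 7.69, 7.44, 7.47, 7.75 and 7.71 in WT arrays, and WT 2 and WT 3 were again inside the KO range.

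On the higher side of this list the smallest p belonged to Kdm5a, an oxygen-dependent histone demethylase (0.31 ± 0.16), followed by Usp20, a deubiquitinase that binds Vhl (0.15 ± 0.088), Arnt2, a paralogue of Arnt (0.15 ± 0.093), and Mtor (0.13 ± 0.084). These genes had 6, 4, 3 and 3 probe sets in that order, and the set given is the one with the smallest p among those higher in KO. Known HIF targets, 18 measured genes in 36 probe sets, were split into 19 higher and 17 lower with a median of 0.013, and 0 reached an unadjusted p under 0.05 by limma. Bhlhe40, a transcriptional repressor (0.33 ± 0.17), and Pgk1, a glycolytic enzyme (0.08 ± 0.052), led the higher side. Tfrc, the transferrin receptor (-0.21 ± 0.12), and Bnip3, a mitophagy receptor (-0.21 ± 0.16), led the lower side. Pgk1 and Tfrc had 3 probe sets each, of which the set with the smallest p in that direction is given.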

How the data were processed

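The deposited values are log2 signals per probe set, made with RMA per the submitters' processing notes. The notes name neither its software nor its settings. RMA makes array distributions alike, so a shift of most transcripts would not show. Per the labels' protocols, 6 ug of total RNA per sample was labelled.

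Of 45101 probe sets, 64 were controls, 932 had several genes, 9160 had none, and 34945 had 1 gene (34741 matched to RefSeq by gene ID). These 34945 were fitted with lmFit and eBayes (limma 3.58.1, R 4.3.3), KO minus WT, two-sided, without covariates, with Benjamini-Hochberg adjustment and a call at an adjusted p under 0.05. Single values were tested by exact two-sided permutation over 252 splits, and correlations with 100000 permutations. The fit was tested on simulated data. Figures used matplotlib 3.10.9. Precision is limited by the number of arrays.

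The members, the lists, the named genes (all members, up to 4 pathway and 2 target probe sets per direction by unadjusted p, and the 3 genes most like each member) and the alternatives were chosen with earlier results of these data known. Groups and replicate numbers came from the titles, and each array was taken as 1 mouse. Alternatives were other sets of probe sets, normalizations, a filter on dim sets, variance models, array weights, a replicate block, a muscle covariate and left-out arrays.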

Additional observations from a re-analysis of the deposited data

Results flagged for a closer look

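Within a group of 5 arrays, 1 array stood apart from the other 4 (a gap to its neighbour of over 0.71 of the range of the group) in 7 of 78 groups tested. For independent groups of normally spread values chance gives about 1 in 20. The groups tested share the same arrays, and some come from probe sets picked by small p, so an excess over chance was not tested. For Hif1a (1416035_at) WT 4 was high at 8.15 while the other WT arrays lay between 8.01 and 8.04. For Hif3a, WT 1 was low at 6.98 in 1425428_at (others 7.14 to 7.20), and KO 2 was high at 3.70 in the dim 1447061_at (others 3.30 to 3.41). For Arnt, KO 2 was low in 2 probe sets, at 7.34 in 1421721_a_at (others 7.59 to 7.68) and at 5.84 in 1425064_at (others 6.00 to 6.05). For Vhl (1421071_at) WT 5 was high at 6.51 (others 6.25 to 6.32), and for Rnf7 (1456600_a_at) KO 5 was low at 10.56 (others 10.77 to 10.85).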

How the results depend on the processing

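No member was called in any of the 23 alternative settings, and the lowest adjusted p of a member among them was 0.51. Filters on probe sets, variance models and the replicate block leave a difference unchanged by construction and could not turn its sign. Counting these settings too, signs turned in 26 of 574 recomputed differences, in 11 of the 27 probe sets, and the cause was not tested. With WT 5, KO 1 and KO 3 left out they turned for Hif1a 1416035_at (0.014), Hif3a 1459052_at (0.087) and Egln3 1418649_at (0.061). In that setting they also turned for Hif1an 1447817_at (0.049), Vhl 1434708_at (0.032) and Vhl 1421071_at (0.072), and 14 member probe sets were higher instead of 8. With WT 4 and WT 5 left out they turned for Hif3a 1425428_at (0.0039), Hif3a 1425429_s_at (0.10) and Hif1an 1452845_at (-0.010). Epas1 1449888_at turned under quantile normalization (0.019) and array weights (0.0011). The mean of all Hif3a probe sets differed by 0.0066, which was counted as a turn against the brightest set, 1425428_at (-0.035). Leaving out 1 array at a time gave -0.080 to 0.0012 for Hif1a 1416035_at, -0.076 to 0.053 for Epas1 1449888_at, -0.070 to 0.050 for Hif3a 1425429_s_at, -0.12 to 0.030 for Hif3a 1459052_at, -0.055 to 0.0021 for Arnt 1419996_s_at and -0.018 to 0.11 for Hif1an 1452845_at. It gave, with no change of sign, -0.59 to -0.18 for Egln3 1418649_at, -0.59 to -0.27 for Egln3 1418648_at and 0.0036 to 0.12 for Hif1a 1427418_a_at.

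Over all probe sets, 0 were called in the fit reported and 0 to 1 without 1 array: without WT 2, a probe set of Ptprb (0.65, adjusted p 0.018 by limma) was called. At an unadjusted p under 0.05 there were 1892, against 1477 to 2925 without 1 array (most without WT 2), 2976 with the muscle covariate, 851 with 1 probe set a gene and 889 with the mean of all sets, both from 18193 tested genes. The exact test gave a p under 0.05 for 2 member probe sets. It did so for 1 to 3 without 1 array (1 without KO 4) and for 1 without WT 5, KO 1 and KO 3. By construction fewer member differences count with 1 probe set a gene (2 higher, 7 lower) and with the mean of all sets (3 and 6). The same holds with a mean of at least 5 (5 higher) and without sets named _s_at, _x_at or _a_at (5 higher). The pathway list likewise had 15 higher and 21 lower with 1 set a gene and with the mean, and 34 lower without such sets. No label says that replicate numbers pair animals, so the numbers were not taken as pairs. Same-numbered arrays had correlations of deviations from -0.33 to 0.17. With the replicate block 0 probe sets were called and 1642 had an unadjusted p under 0.05.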
